A study of Homo sapiens with 3 samples.

Results

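TM4SF1, TM4SF4, TM4SF5, TM4SF18, TM4SF19 and TM4SF20 encode the transmembrane 4 L6 family, small proteins that cross the membrane 4 times, and their mRNA was followed across 3 arrays of the pancreatic cancer line PANC-1. These 6 genes were chosen by family membership with their measured differences already known, so every value of a member below is a description and not a test. They were read by 7 probes, 2 for TM4SF1 and 1 for each of the other genes, out of 25701 probes that named 19695 genes. One array held RNA of control cells. The second held RNA of cells treated with 20 µM cantharidin (CAN), and the third RNA of cells given okadaic acid (OA), for which the sample label also gives 20 µM, both for 24 h. All 3 groups were PANC-1 cultures kept in medium with serum, and the labels name no vehicle for the control. With 1 array per group there is no replicate check on any difference, and no p-value is given.

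Cantharidin, from blister beetles, and okadaic acid, from marine dinoflagellates, both inhibit serine/threonine protein phosphatases, and the arrays addressed how the 2 agents change gene expression in these cells. TM4SF proteins resemble tetraspanins in their membrane topology but form a family of their own, and they gather with integrins, growth factor receptors and other partners at the cell surface. TM4SF1 is the tumour-associated antigen L6, abundant on many carcinomas and on endothelial cells, where it takes part in migration. TM4SF18 is its close relative. TM4SF5 is linked to epithelial-mesenchymal transition in liver and pancreatic cancer, and TM4SF4 was described in intestine and liver. TM4SF19 was described in maturing osteoclasts, and TM4SF20 acts in the endoplasmic reticulum on the processing of the transcription factor CREB3L1.

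The 3 members with the largest differences lie on chromosome 3, where TM4SF18, TM4SF1 and TM4SF4 follow each other among the measured genes and TM4SF19 lies apart. Their promoters are shown because the first pair was lower after cantharidin and the third gene was higher. Each sequence runs 5′ to 3′ on the strand of its gene, from 250 bases before to 50 bases after the RefSeq start in GRCh38.p14, and capitals mark every match to one of 5 motifs searched on both strands: the AP-1 site TGANTCA, the cyclic AMP response element TGACGTCA, the TATA box TATAAA, and the NF-kB and SRF CArG sites.
TM4SF1 promoter, chr3:149377600-149377899, minus strand: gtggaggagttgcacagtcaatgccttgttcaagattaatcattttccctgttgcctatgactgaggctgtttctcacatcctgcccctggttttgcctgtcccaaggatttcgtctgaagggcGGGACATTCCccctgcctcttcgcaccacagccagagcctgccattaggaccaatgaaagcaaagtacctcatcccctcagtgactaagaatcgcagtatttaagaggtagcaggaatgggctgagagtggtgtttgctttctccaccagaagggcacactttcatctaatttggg
TM4SF18 promoter, chr3:149333587-149333886, minus strand: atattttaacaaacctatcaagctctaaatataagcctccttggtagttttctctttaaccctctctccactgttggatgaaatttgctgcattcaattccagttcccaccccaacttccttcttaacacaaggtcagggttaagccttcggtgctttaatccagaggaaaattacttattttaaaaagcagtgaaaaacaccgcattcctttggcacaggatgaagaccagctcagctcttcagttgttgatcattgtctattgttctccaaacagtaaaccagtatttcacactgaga
TM4SF19 promoter, chr3:196338339-196338638, minus strand: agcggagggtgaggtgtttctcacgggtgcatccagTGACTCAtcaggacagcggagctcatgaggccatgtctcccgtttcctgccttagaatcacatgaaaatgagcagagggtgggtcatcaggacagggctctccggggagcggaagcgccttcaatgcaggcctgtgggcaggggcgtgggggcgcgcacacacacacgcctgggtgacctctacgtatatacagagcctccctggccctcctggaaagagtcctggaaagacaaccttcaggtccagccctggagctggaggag

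The TM4SF19 window held 1 AP-1 match, read on both strands, which began 214 bases before the start, and 7.71% of 35116 promoters of that length hold at least 1. The TM4SF1 window held 1 match to the NF-kB motif, beginning 126 bases before the start, against 5.91% of all promoters. The TM4SF18 window held no match to any of the 5. Among the other members, TM4SF4 had a TATA box beginning 31 bases before its start, a motif in 11.5% of promoters, whereas the windows of TM4SF5 and TM4SF20 held none. The response element and the SRF site, in 1.85% and 1.29% of all promoters, occurred in no member. The G and C content of the windows was 60.3% for TM4SF19, 50% for TM4SF1 and 39.3% for TM4SF18, beside a median of 58.7% over all promoters. A match is a description of the letters, and binding was not measured.

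The array signals that these values rest on differed in sensitivity. Between 23071 and 25103 of 34041 probes were well above background, the lowest such signal, the detection floor, was 35.0 in control, 21.9 after cantharidin and 58.0 after okadaic acid, and no transcript spot was saturated. The epithelial genes KRT7, KRT8, KRT18 and KRT19 and the mesenchymal gene VIM were well above background on all 3 arrays. Of the markers of other cells, each read by its brightest probe, PECAM1 (endothelium), PDGFRA and LUM (fibroblasts) were not well above background on any array, although a dimmer probe of PECAM1 was in control. COL1A1 was so only in control, and CDH5, VWF and the leukocyte genes PTPRC, CD3E and CD14 were on all 3. The labels name PANC-1 cells alone, and the source of these marker signals was not tested. Signals below are processed intensities in scanner units with the scanner software's error. Differences are on the log2 scale, relative to the 75th percentile of the array's signals, and a gene was called at 1.5-fold, which is 0.58 on that scale.

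TM4SF1 was lower after cantharidin on both of its probes and was not called on either after okadaic acid. Its brighter probe, A_33_P3390057, read 140750 ± 14075 in control, 28589 ± 2859 after cantharidin and 124162 ± 12416 after okadaic acid. The other probe, A_32_P231617, read 91135 ± 9114, 26492 ± 2649 and 109886 ± 10989 in the same order. Both probes were thus lowest on the cantharidin array, while control and okadaic acid stood close together. On the brighter probe the cantharidin difference was -2.16, a 4.47-fold lower level, with a scanner error of 0.20 and an expected spot noise of 0.10. The other probe gave -1.64, or 3.13-fold lower. The size of the fall therefore depended on the probe, and its direction did not. The okadaic acid difference was -0.44 on the brighter probe and 0.01 on the other, so the order of control and okadaic acid was not settled. Between the treatments, TM4SF1 was higher with okadaic acid by 1.73 on the brighter probe and by 1.66 on the other, 3.31-fold and 3.16-fold. The local background of the control spot of the second probe carried an outlier flag. In bulk RNA, fewer cells with a transcript and less of it per cell cannot be told apart.

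TM4SF18, the neighbour and close relative of TM4SF1, was lower after both agents. Its probe read 2830 ± 283 in control, 266 ± 27.1 after cantharidin and 973 ± 98.0 after okadaic acid, all well above background. The 3 levels were apart by more than the scanner error, with control highest and cantharidin lowest. The cantharidin difference was -3.27, or 9.67-fold lower, with a scanner error of 0.21 and a spot noise of 0.10. The okadaic acid difference was -1.80, or 3.47-fold lower, with a scanner error of 0.20. Between the treatments TM4SF18 stood 1.48 higher with okadaic acid, which is 2.78-fold. The cantharidin array thus had the lowest level of both TM4SF1 and TM4SF18, with okadaic acid at 3.31-fold and 2.78-fold above it.

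TM4SF19 moved the other way and was the member with the widest span. Its probe read 123 ± 14.9 in control, 10525 ± 1053 after cantharidin and 2531 ± 253 after okadaic acid. The control signal was dim, at 3.53 times that array's detection floor, and both treated arrays were far above it. The cantharidin difference was 6.55, or 93.8-fold higher, with a scanner error of 0.23 and a spot noise of 0.14. The okadaic acid difference was 4.10, or 17.2-fold higher, and the okadaic acid minus cantharidin difference was -2.45, or 5.46-fold lower. The order of the arrays was cantharidin, okadaic acid, control, with every step beyond the scanner error. Normexp background correction, which compresses dim signals, brought the differences down to 5.51 and 3.20.

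**Figure D1:**
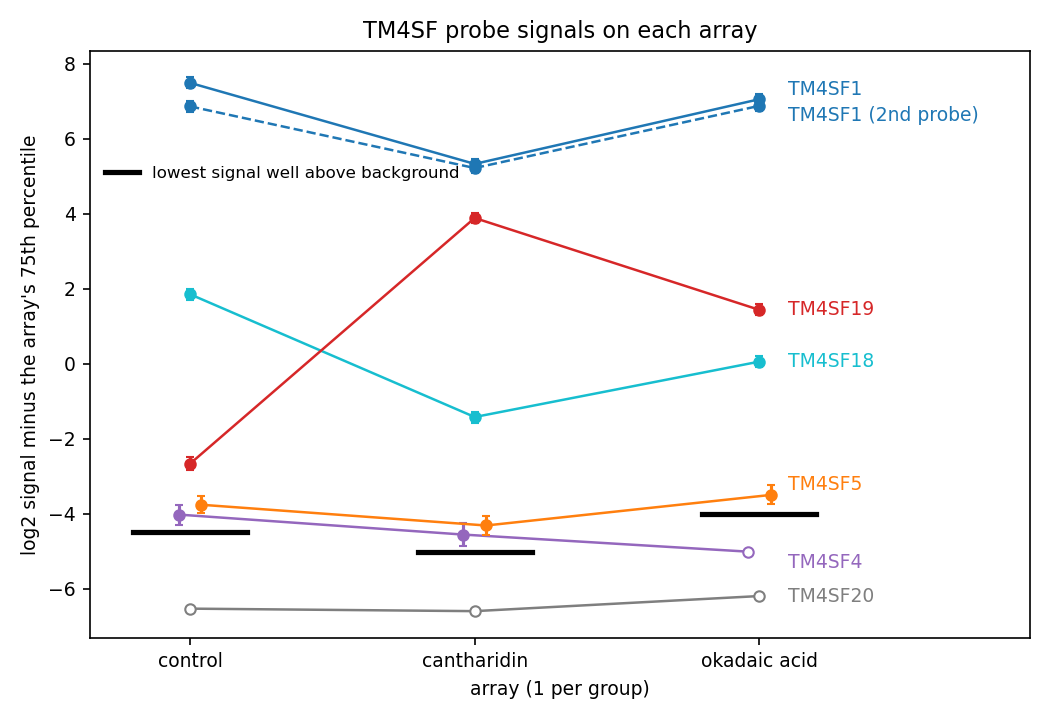
Log2 processed signal minus the 75th percentile of each array (y axis) for the 7 TM4SF probes on the 3 arrays (x axis, 1 array per group), with filled points well above background, open points not so, bars for the scanner software's error on filled points and black lines for the lowest signal well above background. Lines join a probe's own values, and levels of different probes cannot be set against each other. TM4SF19 rose from -2.67 to 3.88 after cantharidin while TM4SF18 fell from 1.85 to -1.42.

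The other 3 members were near or under the detection limit. TM4SF4 read 48.2 ± 8.97 in control, 30.3 ± 6.58 after cantharidin and 29.0 ± 13.2 after okadaic acid, the last of which was not distinguished from background. The cantharidin difference of -0.53, with a scanner error of 0.41, fell just short of the 1.5-fold limit and was not called. The okadaic acid difference was -0.99 by the measured value, but the okadaic acid floor of 58.0 was too high for the control signal to set a bound on the fold, so that call carries no size. TM4SF5 read 57.9 ± 9.05, 35.8 ± 6.50 and 82.8 ± 14.5 in the same order of arrays, all well above background but at most 1.65 times the floor. Its differences from control were -0.55 and 0.26, both not called, with scanner errors of 0.35 and 0.34. Okadaic acid stood 0.81 above cantharidin, a 1.76-fold difference with a scanner error of 0.36 that lay under the 1.5-fold limit with normexp (0.34) and with quantile normalization (0.56). TM4SF20 was printed 10 times on each array, and 0 of its spots were well above background. Its spots ranged from 7.05 to 13.7 in control, from 5.39 to 25.0 after cantharidin and from 11.9 to 19.3 after okadaic acid. These ranges include 1 outlier-flagged spot on each treated array, which was left out of the averages. With no spot well above background, TM4SF20 was not compared.

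Over the 5 members compared after cantharidin, 1 was called higher and 2 lower, in an experiment where 27.5% of 16642 genes were called higher and 34.1% lower. After okadaic acid, 1 was called higher (TM4SF19) and 2 lower (TM4SF18, and TM4SF4 with no bound), where 28.1% of 16164 genes were called higher and 28.8% lower. Between okadaic acid and cantharidin, 3 members were higher (TM4SF1, TM4SF18 and TM4SF5) and 1 lower (TM4SF19), where 29.5% of 16198 genes were called higher and 22.3% lower. The median difference of the members was -0.55, -0.44 and 0.81 in these comparisons, against -0.16, 0.01 and 0.13 for all genes compared. Each member median is the value of 1 gene and does not describe the family. It was TM4SF5, near the detection floor, after cantharidin and between the treatments. After okadaic acid it was the brighter TM4SF1 probe, where the other probe gave 0.01. Calls were common among all genes, and the counts of members say little beside these shares. The 2 comparisons with control share the control array, and a fault of that array would enter both.

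The sizes set TM4SF19 and TM4SF18 further out than the counts do. Among 14898 genes well above background in both control and cantharidin, the TM4SF19 difference ranked 3 from the top, TM4SF18 ranked 247 from the bottom and TM4SF1 ranked 958 from the bottom. Among 14426 genes in control and okadaic acid, TM4SF19 ranked 83 from the top and TM4SF18 1016 from the bottom, whereas TM4SF1 ranked 4556 from the bottom. Between the treatments, over 14602 genes, TM4SF1 ranked 827 and TM4SF18 ranked 1163 from the top, and TM4SF19 ranked 186 from the bottom. Relative to the median of all genes, the cantharidin differences were -3.11 for TM4SF18 and 6.71 for TM4SF19.

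**Figure D2:**
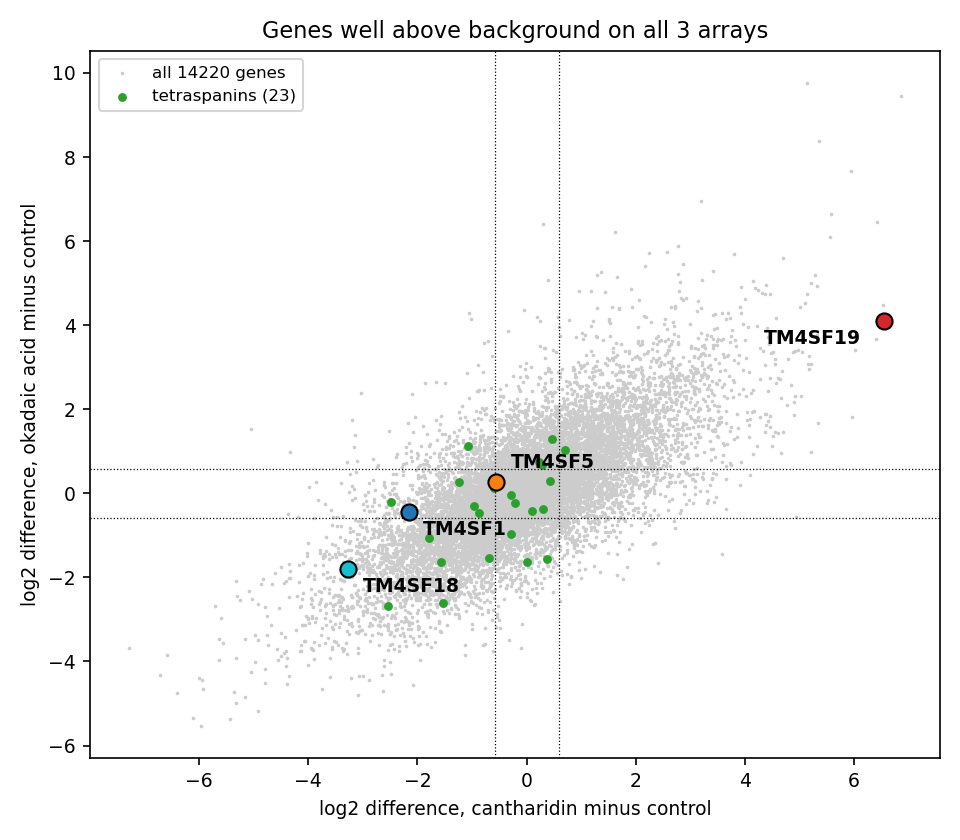
Log2 difference after okadaic acid (y axis) against that after cantharidin (x axis), both relative to control, for 14220 genes well above background on all 3 arrays (grey), 23 tetraspanins (green) and the 4 TM4SF members among them, with dotted lines at the 1.5-fold limit. Both axes share the control array. TM4SF19 lies at 6.55 and 4.10, and TM4SF18 at -3.27 and -1.80.

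Each member's pattern over the 2 differences was set against the other genes well above background on all 3 arrays, 14220 in all. TM4SF1 belonged to the 1594 genes (11.2%) that were lower after cantharidin and not called after okadaic acid. TM4SF18 was among the 2788 (19.6%) lower after both, and 180 other genes were at least as low in each of the 2 differences. TM4SF19 was among the 2451 (17.2%) higher after both. A single other gene, the neuronal immediate-early gene ARC at 6.86 and 9.45, was at least as high in each, and it was named after its value was seen. The nearest patterns to TM4SF19, by Euclidean distance, were the keratin-associated protein gene KRTAP4-2 at 6.56 and 4.06, MDFI at 6.52 and 4.48 and the stress-induced transcription factor gene ATF3 at 6.41 and 3.67, at distances of 0.05, 0.38 and 0.45. These were the 3 genes within 0.5. The nearest to TM4SF1 were MYADM, CLK4 and BANF1 out of 190 genes within 0.5, and the nearest to TM4SF18 were XXYLT1, the metallothionein gene MT1X and LINGO1 out of 86. The weak pattern of TM4SF5 lay within 0.5 of 1966 genes, led by ACSS3, ANKRD18A and TP73. These distances rest on 3 arrays and describe likeness in these values alone.

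The genes beside the members on the chromosome did not share one direction. In the order of RefSeq, HPS3, CP, TM4SF18, TM4SF1, TM4SF4, WWTR1 and COMMD2 are the measured genes of the first region. HPS3, on the TM4SF18 side, fell by 2.03 after cantharidin and fell by 1.62 after okadaic acid. CP, encoding ceruloplasmin, lay between HPS3 and TM4SF18 and was well above background only in control. Its measured differences were -1.20 and -0.60, each with a dim treated signal. WWTR1, the TAZ coactivator gene on the other side, was higher by 0.82 and 0.85, and COMMD2 was at 0.38 and -0.14. On the TM4SF18 side, HPS3 and CP were thus also lower after cantharidin, CP with a dim cantharidin signal. On the other side, past TM4SF4, WWTR1 was higher.

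At TM4SF19 the next gene on the left, DYNLT2B, encoding a dynein light chain, was at -0.99 and -1.22, opposite to TM4SF19. PCYT1A, the regulated enzyme of phosphatidylcholine synthesis, lay beyond it at 1.75 and 2.89, with okadaic acid the higher of the 2. UBXN7 was well above background only after cantharidin, and RNF168, a ubiquitin ligase gene, was at -0.13 and 0.34. RefSeq also lists a readthrough transcript of TM4SF19 and DYNLT2B and antisense RNAs named for TM4SF1, TM4SF18 and TM4SF19, for which no probe was matched.

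**Figure D3:**
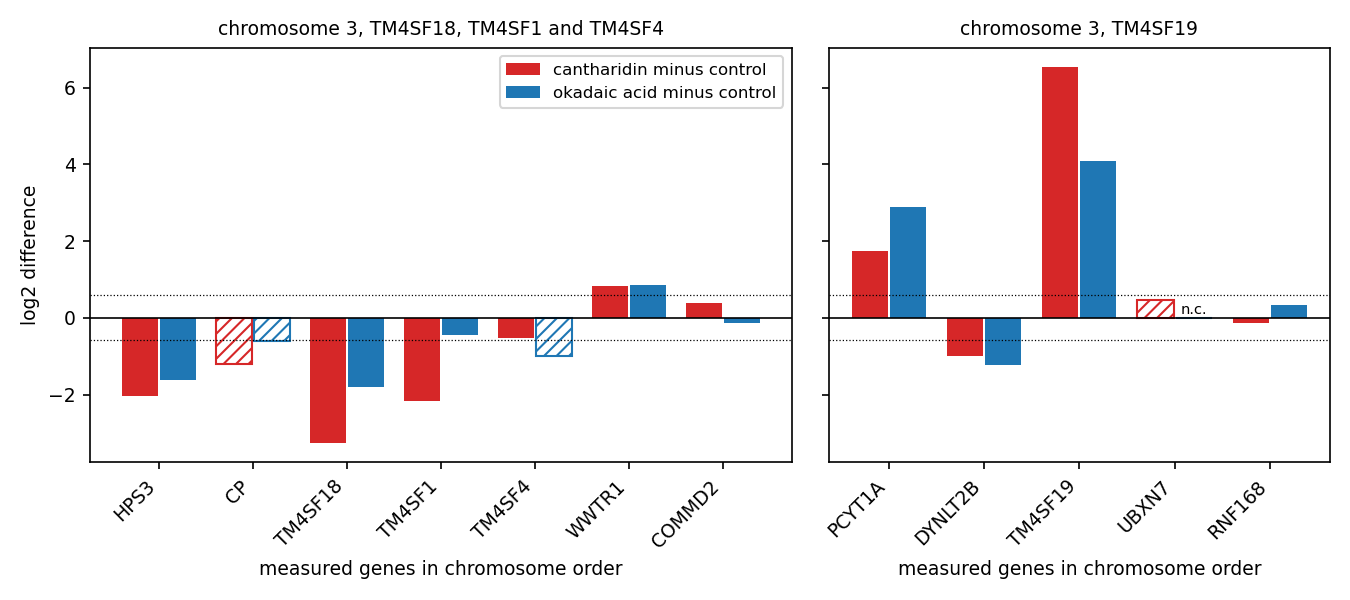
Log2 difference from control (y axis) after cantharidin (red) and okadaic acid (blue) for the measured genes around TM4SF18, TM4SF1 and TM4SF4 and around TM4SF19, in chromosome order and without scale along the x axis. Hatched bars have 1 array not well above background, n.c. means not compared, and dotted lines mark the 1.5-fold limit. TM4SF19, at 6.55 and 4.10, stands beside DYNLT2B at -0.99 and -1.22.

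Around TM4SF5 on chromosome 17, the eggshell-protein homologue VMO1 was higher by 2.44 and 0.84, the chemokine gene CXCL16 was at -0.51 and 0.88, GLTPD2 at -0.68 and -0.20 and ZMYND15 at 0.33 and 0.07. Around TM4SF20 on chromosome 2, AGFG1 was higher by 1.58 and 0.63 and the mitochondrial fission factor MFF was at 0.02 and -0.08. The thiamine transporter gene SLC19A3 was at -0.55 and -0.96, and COL4A3 was not compared. The SLC19A3 value after okadaic acid is the measured one, with a dim okadaic acid signal, and not a bound. These neighbours were measured well above background in control except COL4A3, while TM4SF20 was not.

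The tetraspanins proper, the family that TM4SF proteins resemble, held genes that differed in each direction. Of 33 listed genes, 32 had a probe and 26 were compared after cantharidin, where 2 were called higher (7.69% beside 27.5% of all genes) and 13 lower (50% beside 34.1%), with a median of -0.45. At a 2-fold limit 1 was higher and 8 were lower. Of those measured on both arrays, the furthest down were TSPAN15 at -2.54, TSPAN12 at -2.48, TSPAN3 at -1.79, TSPAN14 at -1.56 and TSPAN4 at -1.52, and TSPAN10 was the higher one measured on both arrays, at 0.71. After okadaic acid 5 of 25 were called higher (20% beside 28.1%) and 9 lower (36% beside 28.8%), shares a few genes away from those of all genes, with a median of -0.30. Of those measured on both arrays, TSPAN15 at -2.68, TSPAN4 at -2.60, UPK1A and TSPAN14 both at -1.64 and TSPAN9 at -1.56 were the furthest down, and TSPAN13 at 1.30, ROM1 at 1.12, TSPAN10 at 1.02, TSPAN5 at 0.74 and CD82, a metastasis suppressor, at 0.67 were higher. TSPAN8 was well above background only in control, at least 2.09-fold lower after cantharidin and at least 1.04-fold lower after okadaic acid. TSPAN14 had 4 probes, and those well above background on 1 or both arrays of a comparison disagreed. They ran from -1.56 to 0.13 after cantharidin and from -1.64 to 0.12 after okadaic acid. None of the tetraspanins measured on both arrays was as far up after cantharidin as TM4SF19 or as far down as TM4SF18. TSPAN8, with only a bound, cannot be placed against TM4SF18.

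Genes for proteins that act with TM4SF members included several adhesion receptors that were lower after both agents. Of 10 listed, 0 were called higher and 6 lower after cantharidin, beside 27.5% and 34.1% of all genes, and 2 were higher and 6 lower after okadaic acid, beside 28.1% and 28.8%, with medians of -0.69 and -0.83. Among the adhesion receptors, the integrin subunits ITGB1 (-1.32 and -2.53) and ITGA5 (-0.65 and -1.05) and the hyaluronan receptor CD44 (-1.21 and -2.35) were lower after both agents. Okadaic acid stood below cantharidin at -1.21 for ITGB1 and -1.14 for CD44, while ITGA5, at -0.39, was not called between them. The integrin ITGA2 was at -0.73 after cantharidin and 1.28 after okadaic acid, and the tetraspanin CD151 at -0.29 and -0.97. The collagen receptor DDR1, through which TM4SF1 was reported to act, was at -3.21 and -1.68 on its brightest probe. Its other probe gave -0.50 and 0.08, but it was well above background only in control, so these values carry no size. EGFR, a partner of TM4SF5, was at -0.94 and 1.32 on its brightest probe, with probes from -3.23 to -0.85 after cantharidin and from -0.58 to 1.32 after okadaic acid. The kinases PTK2 and SRC were at 0.40 and -0.26 and at -0.52 and -0.52. CREB3L1, whose processing TM4SF20 controls, was at -0.27 and -0.68.

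**Figure D4:**
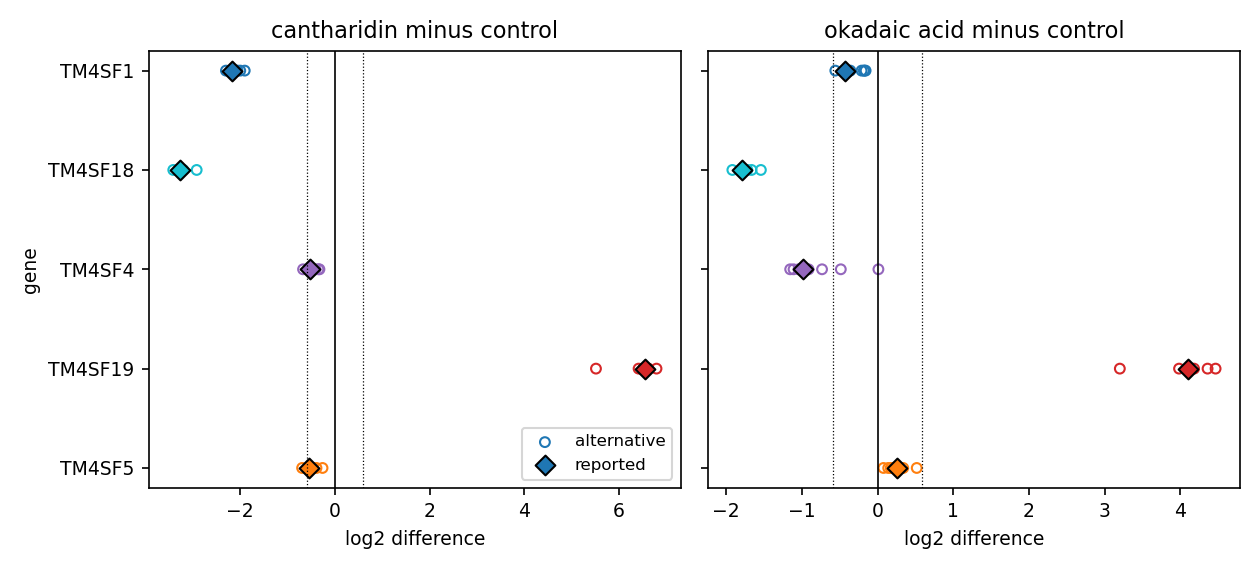
Log2 difference from control (x axis) of the 5 TM4SF members compared (y axis), after cantharidin (left) and okadaic acid (right), as reported (diamonds) and under up to 10 other ways of processing the arrays (circles), with dotted lines at the 1.5-fold limit. TM4SF19 spanned 5.51 to 6.79 and TM4SF18 spanned -3.41 to -2.92 after cantharidin, while TM4SF4 after okadaic acid spanned -1.15 to 0.011.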

How the data were processed

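RNA of PANC-1 cells was hybridised to 3 Agilent 1-colour (Cy3) arrays, 1 per group, and groups were taken from the titles in the labels. The authors deposited the scanner output of Feature Extraction 11.0.1.1, with probes annotated on hg19. Per the file headers, the processed intensity was background-subtracted and detrended within each array and not scaled between arrays. The deposited 0/1 flags marked outlier, saturated and well-above-background spots. A second deposited file holds the authors' normalized log2 values of 30923 probes, whose normalization is not given in the sources used here. It was used as an alternative only.

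Here, unflagged spots were averaged per probe (34041 of 34127 probes), and log2 intensity was centred on each array's 75th percentile. Accessions without version were matched to RefSeq (GRCh38.p14). A gene was represented by its brightest probe, compared when that probe passed the background flag in 1 or both arrays of a comparison, and called at 1.5-fold. A dim array gave a bound against the array's lowest signal well above background, or no fold. Spot noise came from 999 probes printed 10 times, within 2-fold of a member's brightness. Named genes were all members, up to 5 tetraspanins per direction and comparison measured on both arrays, all 10 partners, 2 measured neighbours on each side and the 3 nearest patterns. The members and lists were chosen with earlier results of these data known. Calls were tested on simulated data with large differences planted in the brighter probes, which did not test dim probes or arrays with unlike floors. Python 3.11.15, numpy 2.4.6, pandas 2.3.3, R 4.3.3 and limma 3.58.1 (normexp, offset 50, and quantile) were used. The alternatives were other background correction, scaling, filters, fold limit, probe summary and the deposited table. The number of arrays limits the precision.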

Additional observations from a re-analysis of the deposited data

How the results depend on the processing

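The differences of TM4SF1, TM4SF18 and TM4SF19 kept their sign and their side of the 1.5-fold limit in all 3 comparisons under all 10 alternatives, of which 7 could move the value of TM4SF1 and 6 those of TM4SF18 and TM4SF19, since filters and floors do not touch genes well above background on every array and a probe median does not touch a gene with 1 probe. After cantharidin they ranged from -2.30 to -1.90 for TM4SF1, from -3.41 to -2.92 for TM4SF18 and from 5.51 to 6.79 for TM4SF19, and after okadaic acid from -0.56 to -0.16, from -1.92 to -1.54 and from 3.20 to 4.46. No alternative used the dimmer TM4SF1 probe alone, which gave 0.01 after okadaic acid, so the sign of that difference is not settled. The member counts that moved rest on the dim members TM4SF4 and TM4SF5. With no scaling, 4 members in place of 2 were lower after cantharidin. After okadaic acid, 1 member in place of 2 was lower with normexp, with only genes well above background on all 3 arrays, with dim signals raised to the floor of their array and at a 2-fold limit. Between okadaic acid and cantharidin, 2 members in place of 1 were lower with median scaling, quantile normalization and the deposited table. In that comparison 2 in place of 3 were higher with normexp, with quantile normalization and at a 2-fold limit. The TM4SF4 difference after okadaic acid turned from -0.99 to 0.011 when dim signals took the floor value, and its difference between the treatments was then 0.54. Of the tetraspanins, 1 in place of 2 was higher after cantharidin with normexp, no scaling, the filter on all 3 arrays, dim signals at the floor or a 2-fold limit, and at 2-fold 8 in place of 13 were lower after cantharidin and 3 in place of 5 higher after okadaic acid. Scaling moved the median of all genes between -0.30 and -0.09 after cantharidin and between -0.11 and 0.26 after okadaic acid. Relative to that median, TM4SF18 stood at -3.11 and TM4SF19 at 6.71 after cantharidin. Of the 4 other scalings, only quantile normalization could move these values, and it gave -3.10 and 6.62. The rest shift every gene of an array by the same amount, which cancels against the median, so they do not test these values. No paired analysis was possible because each group holds 1 array, and no array could be left out for the same reason. Signal over background limits TM4SF4, TM4SF5 and TM4SF20, and the higher floor of the okadaic acid array limits that array most.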
